A study of Mus musculus with 48 samples.

Results

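The KPC effect in wild-type (WT) muscle was taken as all 24 RNA-seq libraries of WT mice in a series of 48, 12 from mice with KPC tumors and 12 from control mice, chosen by the genotype and condition of their labels. Each library holds the tibialis anterior muscle, a fast-twitch muscle of the lower leg, of a separate male mouse, and the groups hold 2 mice at each of 6 circadian times (CT18, CT22, CT26, CT30, CT34, and CT38, labelled 00:00, 04:00, 08:00, 12:00, 16:00, and 20:00). KPC mice received KPC cells, a murine pancreatic cancer line, by injection into the pancreas, and control mice received sterile PBS. The effect therefore belongs to tumors of this single line, and all mice of both groups were in constant darkness at collection. The labels give the strain of WT mice as C57BL/6J and ages between 39 and 55 weeks, whereas the design text of the series describes WT mice as floxed *Foxp1* mice without Cre, so a floxed allele may be carried by both groups. The paper's methods give the same ages as the labels. Its account of its limits gives the mice of the RNA-seq as younger, so the age is stated in 2 ways. The comparison asks which transcripts differ between tumor-bearing and tumor-free muscle on average over the 6 circadian times, and whether the difference holds without 08:00. The level of each circadian time was fitted as a covariate. A change confined to a single time can be missed by this average.

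Cancer cachexia is a wasting of skeletal muscle that accompanies many tumors, those of the pancreas among them, and that circulating cytokines, glucocorticoids, and tumor products are known to promote. Interferon gamma acts through the JAK-STAT pathway and IRF1 to raise guanylate-binding proteins, immunity-related GTPases, the immunoproteasome, and major histocompatibility complex (MHC) molecules, and cytokines of the IL-6 family act through STAT3 to raise *Socs3*, *Cebpd*, and *Bcl3*. The muscle fibers lie in a collagen matrix made mainly by fibroblasts, next to capillaries, tendon cells, and resident immune cells, and all of these contribute RNA to a whole-muscle library.

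Total counts on genes ranged from 15130678 to 19980731 in the control libraries and from 14599024 to 20787784 in the KPC libraries, with medians of 16526911 and 16431858. Summed over 6 fiber markers (*Ckm*, *Acta1*, *Mb*, *Myh4*, *Tnnt3*, and *Ttn*), the level was 41120 to 51820 FPKM (fragments scaled by gene length and library size, the deposited unit that allows levels of different genes to be compared) in control libraries and 37460 to 49290 FPKM in KPC libraries, as the labelled tissue requires. Pancreatic and epithelial markers were near 0 (10 genes, 0.848 to 2.01 FPKM summed in control and 0.996 to 1.95 FPKM in KPC libraries, with *Cpa1* at 0 in all 24). Replicate 1 of the control mice at 08:00 stood apart, with a median absolute log2 deviation of 0.270 over genes, against 0.195 in its partner and 0.126 to 0.177 in the other 22. Replicate 1 of the KPC mice at 12:00 held no read of *Ddx3y*, *Uty*, *Kdm5d*, or *Eif2s3y*, Y-linked genes with 1448 to 2519 reads together in the other 23 libraries, and 1 read of *Xist*, so that it goes against the labelled sex of the mice in the Y-linked genes only. Albumin (*Alb*), a liver transcript, reached 4.56, 2.02, and 4.15 FPKM in KPC libraries (00:00 replicate 2, 08:00 replicate 1, and 16:00 replicate 2) and 1.25 FPKM in replicate 2 of the control mice at 08:00, against 0.262 FPKM or less in the other 20. Counts without the library that stood apart and without the one that lacks Y-linked reads are given below.

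Between KPC and control mice, 238 of 14966 genes tested differed in WT muscle (1.59%; adjusted p under 0.05), of which 150 were higher (1.0%) and 88 lower (0.588%) in KPC mice. Adjusted p come from the quasi-likelihood test of edgeR, corrected by the Benjamini-Hochberg method over all genes tested. By the same test, 2077 of the 14966 genes had an unadjusted p under 0.05, 1043 higher and 1034 lower. Counts of list members at that threshold below are to be read against this share. The genes that rose were led by interferon-induced GTPases and MHC genes and cytokine receptors, and those that fell by collagens, tendon and matrix genes, and the cardiac actin *Actc1*. Most changes were small, and 21 genes rose and 8 fell by 2-fold or more. The direction was the same at all 6 times in 185 of the 238, 116 of those that rose and 69 of those that fell, against 6.68% of all genes tested, a property that the fit over the 6 times partly selects for. Individual mice overlapped widely, and *Jak3* was the only gene of the 14966 (0.00668%) in which the 12 KPC libraries all lay above the 12 control libraries, with no gene in the opposite order. The median log2 fold change of all genes tested was -0.0028. Without replicate 1 of the KPC mice at 12:00, 113 genes were higher and 51 lower, and without replicate 1 of the control mice at 08:00, 155 were higher and 84 lower.

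**Figure D1:**
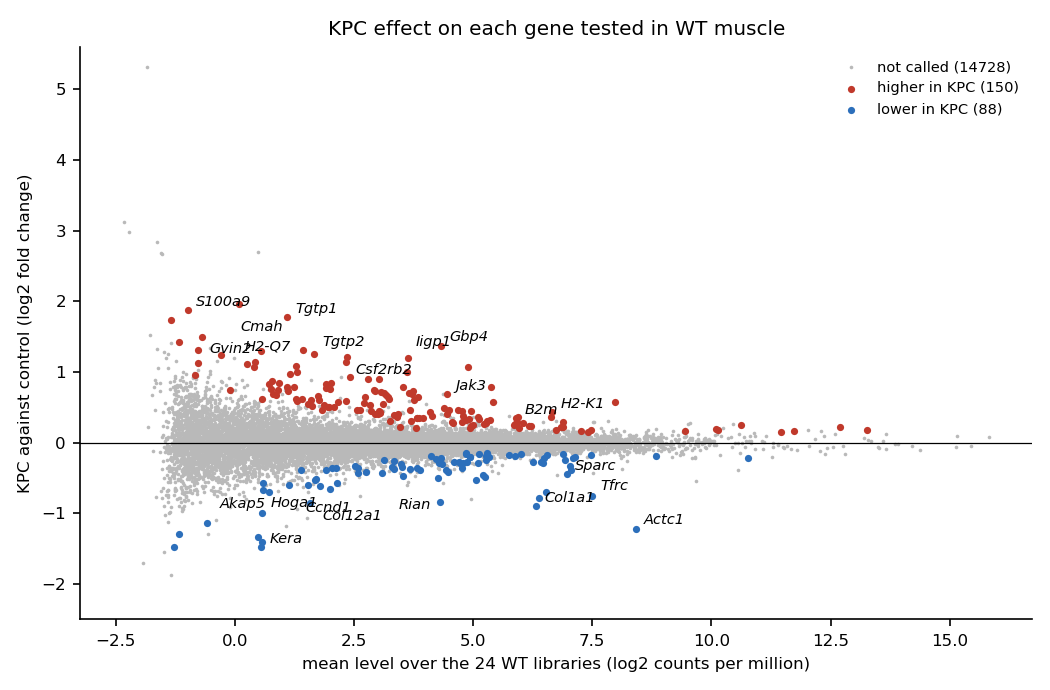
Log2 fold change between 12 KPC and 12 control libraries of WT muscle against the mean level in log2 counts scaled to library size, with 1 point for each of 14966 genes. Red points are the 150 genes higher and blue points the 88 genes lower in KPC mice at an adjusted p under 0.05, and labels mark genes named by the rule and 6 examples.

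The interferon and antigen presentation genes rose together. Of 34 listed and tested, 26 were higher in KPC mice, none was lower, and 8 did not pass, with a median log2 fold change of 0.587 against -0.0028 for all genes. *Iigp1*, an interferon-inducible GTPase of the immunity-related family, ranged from 0.882 to 2.20 FPKM (median 1.19) in control mice and from 1.90 to 5.42 FPKM (median 2.68) in KPC mice. A single control library reached into the KPC range, and the fitted difference was 2.29-fold (log2 fold change 1.19, standard error 0.14, adjusted p = 3.53e-05). *Gbp4*, a guanylate-binding protein that acts against intracellular pathogens, ranged from 0.882 to 2.68 FPKM (median 1.39) and from 2.25 to 6.26 FPKM (median 3.68) (log2 fold change 1.37, standard error 0.17, adjusted p = 6.52e-05). *Tgtp1*, a further GTPase of this kind, had the largest fitted rise of the list and was low in both groups, at 0.0843 to 0.612 FPKM (median 0.245) in control and 0.518 to 1.55 FPKM (median 0.960) in KPC libraries (log2 fold change 1.78, standard error 0.22, adjusted p = 6.52e-05). Its neighbor *Tgtp2* had a log2 fold change of 1.25 (adjusted p = 0.000985), and since these are near-identical copies, as are *Gvin1* and *Gvin2* and several MHC class I genes, the division of reads between them is uncertain. The GTPases *Igtp* (0.73), *Irgm1* (0.34), and *Irgm2* (0.46) and the guanylate-binding proteins *Gbp2*, *Gbp3*, *Gbp5*, *Gbp6*, and *Gbp7* (0.62 to 0.73) also rose. Outside the list, the rule for the largest changes named *Gvin2*, a very large interferon-inducible GTPase (log2 fold change 1.15, adjusted p = 0.00461), *H2-Q7*, a nonclassical class I heavy chain (log2 fold change 1.31, adjusted p = 0.00178), and *Cmah*, the enzyme that makes N-glycolylneuraminic acid (log2 fold change 1.29, adjusted p = 0.0042).

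Genes of the MHC class I pathway, which presents peptides from inside the cell, were among the most abundant that changed. *H2-K1*, a heavy chain, ranged from 24.9 to 36.2 FPKM (median 27.1) in control and from 30.7 to 48.6 FPKM (median 40.2) in KPC libraries (log2 fold change 0.44, standard error 0.06, adjusted p = 7.43e-05), and *H2-D1* rose by 0.37 (adjusted p = 7.43e-05). *B2m*, the light chain shared by these molecules, ranged from 50.4 to 70.8 FPKM (median 60.9) and from 57.7 to 98.1 FPKM (median 77.5) (log2 fold change 0.35, standard error 0.06, adjusted p = 0.00321). The groups overlapped for both *H2-K1* and *B2m*, though both were higher in KPC mice at all 6 times. *Tap1*, which carries peptides into the endoplasmic reticulum, ranged from 0.677 to 1.56 FPKM (median 1.02) in control mice and from 1.48 to 3.03 FPKM (median 1.76) with tumors (log2 fold change 0.90, standard error 0.12, adjusted p = 7.35e-05). Its partner *Tap2* did not pass (log2 fold change 0.31, adjusted p = 0.0635). The immunoproteasome subunits *Psmb8* and *Psmb9* rose by 0.59 and 0.54 (adjusted p = 0.0112 and 0.0234), whereas the log2 fold change of *Psmb10* was 0.06 (adjusted p = 0.825). The rise of *Psmb9* lost its call (adjusted p of up to 0.0534) without any of 3 KPC libraries, replicate 1 at 12:00, replicate 2 at 16:00, or replicate 2 at 20:00. *Nlrc5*, the transactivator of class I genes, had a log2 fold change of 0.85 (adjusted p = 0.00191), and the transcription factors *Irf1* and *Irf8* had 0.43 (adjusted p = 0.0134) and 0.55 (adjusted p = 0.00304).

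The MHC class II genes, which antigen-presenting cells use to display peptides from outside the cell, rose as well. *Cd74*, the invariant chain, ranged from 10.2 to 29.8 FPKM (median 20.1) in control libraries and from 14.6 to 51.3 FPKM (median 30.8) in KPC libraries (log2 fold change 0.58, standard error 0.12, adjusted p = 0.00949). The log2 fold changes were 0.61 for *H2-Aa*, 0.64 for *H2-Ab1*, 0.68 for *H2-Eb1*, and 0.69 for their transactivator *Ciita* (adjusted p = 0.0128, 0.0119, 0.00576, and 0.0344). Markers of macrophages, which carry these molecules, did not pass one by one, though all 10 had positive average fold changes (0.06 to 0.47). These markers were not higher at every time, a description with no test. At CT18, CT22, and CT38, 10, 9, and 6 of the 10 were higher, with medians of 0.846, 0.432, and 0.347. At CT26, CT30, and CT34, 3, 5, and 5 were higher, with medians of -0.0677, -0.0886, and -0.0235. The summed level of the macrophage markers was 11.4 to 35.9 FPKM (median 22.8) in control and 15.2 to 60.9 FPKM (median 27.3) in KPC libraries. In 3 KPC libraries it was above every control library, and no macrophage marker was at 0 throughout. In whole muscle, more cells of a type and more RNA per cell cannot be told apart, and the part of macrophages in the class II result was not tested. Of the 6 listed genes best known as targets of type I interferon, *Ifit1*, *Ifit3*, *Isg15*, *Usp18*, *Rsad2*, and *Ifi44*, none passed, at log2 fold changes of -0.01 to 0.37 (adjusted p = 0.318 to 0.992). Outside the list, *Irf9* and *Stat2*, partners in the interferon-stimulated gene factor, did pass and are given in the closing observations. Whether an interferon acted, and which, was not tested. *Isg15* ranged from 0.621 to 2.69 FPKM (median 0.990) in control mice and from 0.526 to 2.60 FPKM (median 1.05) in KPC mice. The transcripts of interferon gamma itself amounted to 1 read in the 12 control and 4 reads in the 12 KPC libraries. The count of 26 was between 23 and 27 when any library was left out, 23 without the library that lacks Y-linked reads, and 25 without replicate 1 of the control mice at 08:00. It was 17 without 12:00, 20 to 24 without any other time, and 17 in a fit of all 48 libraries.

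Elements that STAT and IRF factors bind stood in many promoters of these genes. The promoter windows were those of RefSeq (GRCm38.p6), from 250 bases before to 50 bases after the start, and 19 of the 26 genes that rose had one. On either strand, the STAT element TTCNNNGAA was in 47.4% of the 19, against 6.87% of 10735 promoters of genes tested, and the interferon-stimulated response element (ISRE), searched as a pair of GAAA blocks with 2 bases of any kind between them and added after the values of the genes were seen, was in 52.6%, against 2.91%. Both were present in 6 of the 19 (31.6%, against 0.419% of all), with no overlap between the matches. These 6 include *Tgtp1*, *Tgtp2*, *Igtp*, and *Irgm2*, related GTPases with near-identical windows, so their matches are not separate occurrences. Windows of 30 bases are shown for *Tgtp1*, *Tgtp2*, *Igtp*, and *Irgm2*, in which the STAT element lies just before the ISRE, and for *Gbp2* and *B2m*, with an ISRE alone, since these genes carry the largest group of changes. They are read 5′ to 3′ on the gene's strand, the matches are in capitals, and positions are those of an exact match to mm39:
Tgtp1 (chr11:48883136-48883165, minus strand): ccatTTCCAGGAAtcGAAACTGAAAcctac
Tgtp2 (chr11:48955095-48955124, minus strand): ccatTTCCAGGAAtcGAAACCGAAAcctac
Igtp (chr11:58090333-58090362, plus strand): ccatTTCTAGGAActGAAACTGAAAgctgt
Irgm2 (chr11:58105724-58105753, plus strand): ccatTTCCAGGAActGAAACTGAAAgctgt
Gbp2 (chr3:142326355-142326384, plus strand): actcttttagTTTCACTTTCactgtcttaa
B2m (chr2:121978019-121978048, plus strand): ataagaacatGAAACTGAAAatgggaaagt
The matches begin between positions -139 and -34 from the RefSeq start of their gene. The window of *Gbp2* spans the first base that the mm39 annotation gives for that gene (142326363), which lies upstream of the RefSeq start. The list was made of genes known to respond to interferon or to present antigen, so the shares come with the choice of list. They say nothing about the KPC effect, and no share is given for the listed genes that did not pass. The matches are a description of the sequence, and binding at them was not measured here. Among all 150 genes that rose, these included, 114 had a promoter, of which 14.9% held the STAT element and 16.7% the ISRE. Among the 88 genes that fell, 63 had a promoter, of which 5 held the STAT element (7.94%) and none the ISRE.

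Genes of cytokine signaling formed the other group with many rises. Of 30 tested, 10 were higher in KPC mice and none was lower, with a median of 0.163. *Jak3*, a kinase that serves receptors with the common gamma chain, ranged from 2.26 to 3.69 FPKM (median 3.12) in control libraries and from 3.86 to 6.26 FPKM (median 4.99) in KPC libraries. The groups did not overlap, and the rise was 1.61-fold (log2 fold change 0.69, standard error 0.09, adjusted p = 6.52e-05). *Csf2rb*, the common beta chain of the GM-CSF, IL-3, and IL-5 receptors, ranged from 0.256 to 0.715 FPKM (median 0.3995) and from 0.557 to 1.64 FPKM (median 0.888) (log2 fold change 1.14, standard error 0.15, adjusted p = 0.000116), and its close paralog *Csf2rb2* rose by 1.21 (adjusted p = 7.43e-05), with reads that may be shared. *Osmr*, the oncostatin M receptor of the IL-6 family, ranged from 0.4998 to 0.836 FPKM (median 0.723) in control mice and from 0.742 to 2.06 FPKM (median 1.04) in KPC mice (log2 fold change 0.78, standard error 0.11, adjusted p = 0.000168). The receptors *Il4ra* and *Il1r1* rose by 0.70 and 0.50. Downstream, the transcription factor *Stat3* rose by 0.30 (adjusted p = 0.00191), from a control range of 5.11 to 6.28 FPKM to a KPC range of 5.596 to 8.74 FPKM. Known targets of STAT3 also rose, *Socs3*, its feedback inhibitor, by 0.83 (adjusted p = 0.00759), *Bcl3*, an NF-kB cofactor, by 0.99 (adjusted p = 0.00706), and *Cebpd*, a C/EBP transcription factor, by 0.71 (adjusted p = 0.00884). With any library left out the count was 10 to 12. Among genes not passing, the log2 fold change of *Il6ra* was 0.36 (adjusted p = 0.0705).

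**Figure D2:**
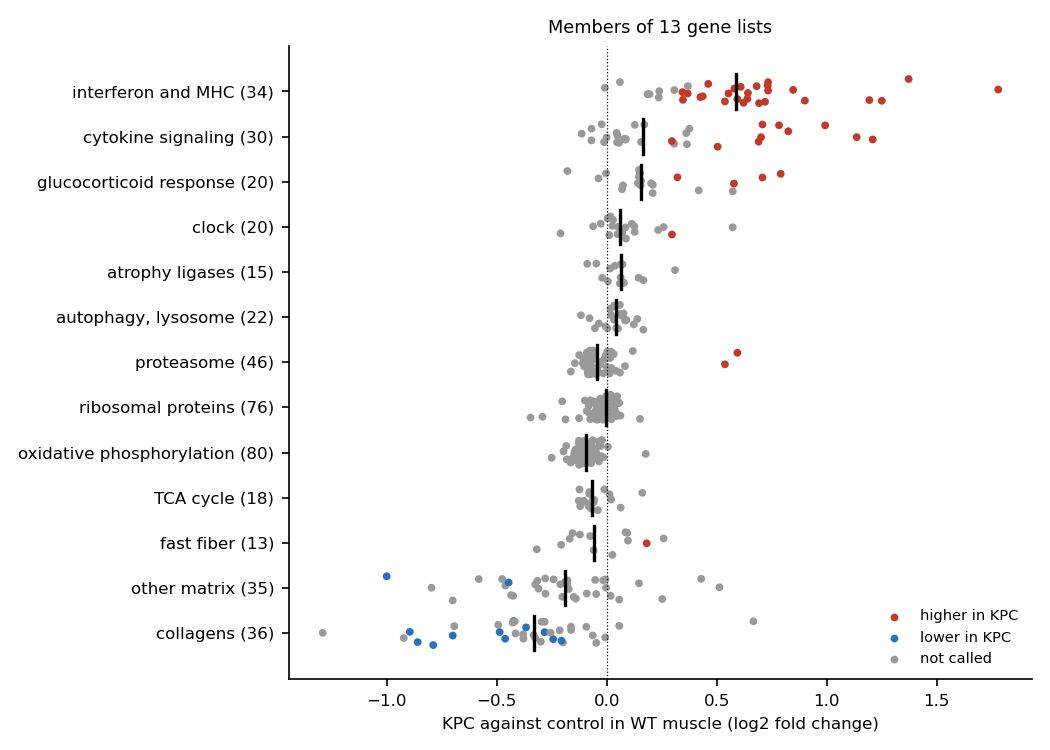
Log2 fold change between KPC and control mice in WT muscle for the members of 13 gene lists, with the number tested in parentheses, 1 point per gene and a black bar at each median. Points of the interferon and cytokine lists extend to the right (26 and 10 called), those of the collagens to the left (11 called), and the medians of the other lists lie between -0.188 and 0.155.

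Smaller sets of genes that respond to glucocorticoids, to amino acid stress, and to activation also contained rises. Of 20 glucocorticoid-responsive genes, 4 were higher (median 0.155), *Arrdc2*, an arrestin-domain gene linked to muscle wasting, with 0.79 (adjusted p = 0.00551), *Cebpd*, *Klf15*, a transcription factor of muscle amino acid breakdown, with 0.32 (adjusted p = 0.0223), and *Pdk4*, an inhibitor of pyruvate dehydrogenase, with 0.58 (adjusted p = 0.0492). *Arrdc2* ranged from 3.24 to 22.5 FPKM (median 7.14) in control mice and from 5.26 to 43.4 FPKM (median 12.4) in KPC mice, a wide overlap across times of day. *Cebpd* is also counted among the cytokine signaling genes. *Pdk4* also belongs to the list of fatty acid uptake and oxidation, as the only call of 26 genes tested there (median 0.013). The prototypical target *Fkbp5* had a log2 fold change of -0.04 (adjusted p = 0.917). The count of 4 was 2 without replicate 2 of the control mice at 20:00 or replicate 1 of the KPC mice at 12:00, 0 without 20:00, 2 without 08:00 or with limma, and 9 with no filter on low counts. *Pdk4* kept its call in 9 of the 24 fits that left out 1 library and lost it with DESeq2 (adjusted p = 0.0515). *Chac1*, a glutathione-degrading enzyme of the integrated stress response, ranged from 3.87 to 27.5 FPKM (median 7.93) in control and from 9.37 to 48.4 FPKM (median 22.0) in KPC libraries (log2 fold change 1.06, standard error 0.18, adjusted p = 0.00141), and the amino acid transporter subunit *Slc3a2* rose by 0.24 (adjusted p = 0.0212). These were the 2 of 15 stress response genes that passed, and *Atf4*, *Asns*, and *Trib3* were not among them. Of 14 immediate early genes, *Junb* (log2 fold change 0.42, adjusted p = 0.00755) and *Fos* (log2 fold change 0.76, adjusted p = 0.0237) rose, the latter without a call (adjusted p up to 0.0658) when 1 of 6 libraries was left out, replicate 1 of the control mice at 00:00, replicate 2 of the control mice at 16:00 or 20:00, replicate 1 of the KPC mice at 00:00 or 12:00, or replicate 2 of the KPC mice at 20:00. The complement gene *C4b* rose by 0.997 (adjusted p = 0.00826), 1 of 17 complement and coagulation genes, and the acute-phase gene *Serpina3n* by 0.85 (adjusted p = 0.0366), 1 of 9, with its call kept in 11 of the 24 fits that left out 1 library.

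**Figure D3:**
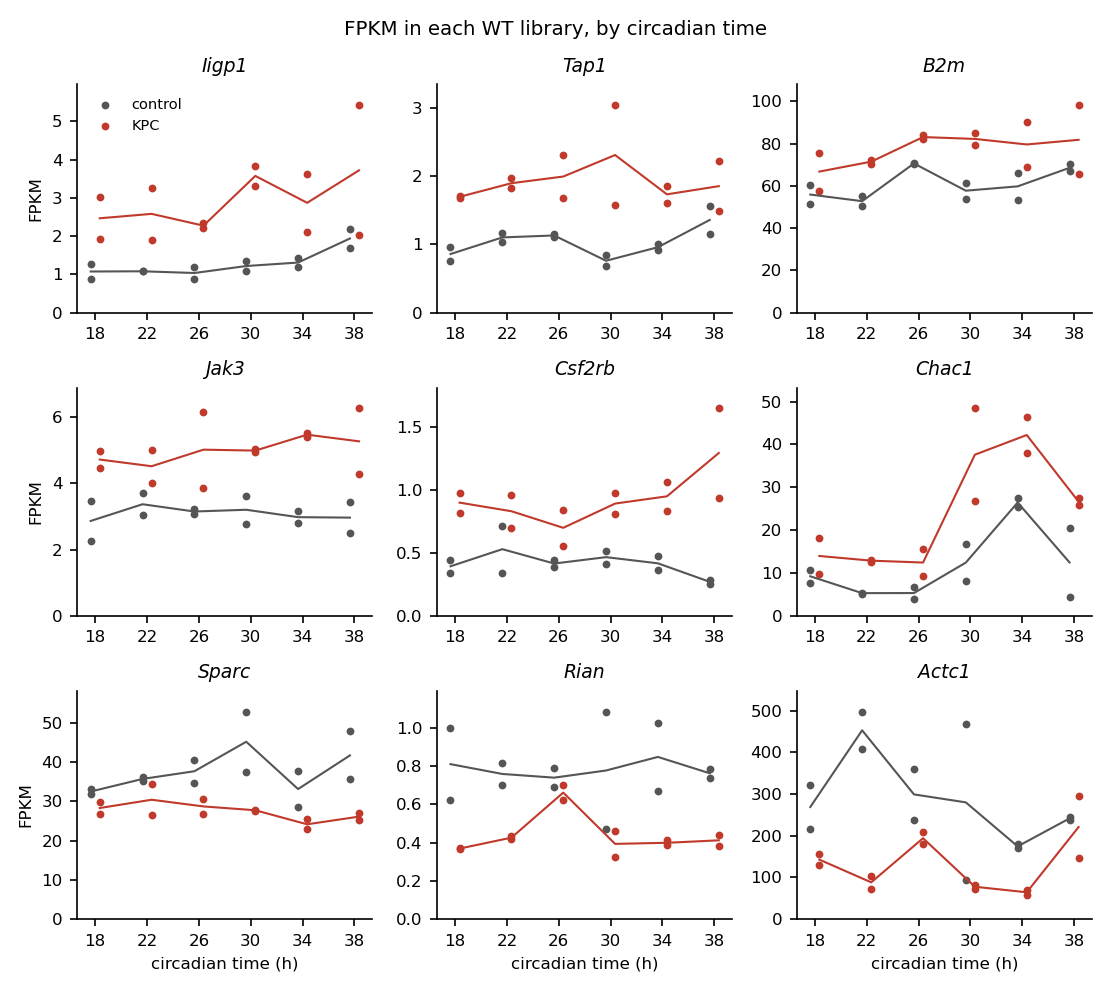
FPKM of 9 genes in each WT library by circadian time in hours, with 2 control (grey) and 2 KPC (red) mice at each time, lines through the means, and every axis starting at 0. For Jak3 all 12 KPC libraries (3.86 to 6.26) lie above all 12 control libraries (2.26 to 3.69), Chac1 has its highest mean at 34 h in both groups, and Sparc, Rian, and Actc1 are lower in KPC mice at every time on average.

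Of the leukocyte marker lists, calls were made in that of neutrophils alone, at low levels and with 2 of 9 markers testable. Both were higher, *Csf3r*, the G-CSF receptor, with 1.24 (adjusted p = 0.0112) and *S100a9*, a calcium-binding alarmin, with 1.87 (adjusted p = 0.0139). *S100a9* ranged from 0 to 1.04 FPKM (median 0.266) in control and from 0.129 to 2.24 FPKM (median 0.953) in KPC libraries. Its call was lost without any one of the 5 times other than 08:00 (adjusted p = 0.0533 to 0.0945), that of *Csf3r* without 00:00 (adjusted p = 0.0773), and DESeq2 gave *S100a9* no adjusted p. Summed over 9 neutrophil markers the level was 0.114 to 1.54 FPKM (median 0.483) in control and 0.727 to 3.36 FPKM (median 2.15) in KPC mice, above every control library in 10 of the 12, while the granule genes *Mpo* and *Elane* had no read in any KPC library and *Ly6g* had 2. Further leukocyte genes, chosen after their values were seen, were *Ptprc* (CD45, log2 fold change 0.79, adjusted p = 0.00755), *Itgax* (CD11c, log2 fold change 1.12, adjusted p = 0.0219), *Dock2*, a regulator of leukocyte migration (log2 fold change 1.07, adjusted p = 0.0156), and the chemokine *Ccl8* (log2 fold change 1.96, adjusted p = 0.00461). *Ptprc* ranged from 0.0337 to 0.135 FPKM (median 0.0976) in control mice and from 0.0780 to 0.249 FPKM (median 0.156) in KPC mice. Of 3 lymphocyte markers that could be tested none passed, and the summed level of 8 was 13.8 to 42.9 FPKM (median 22.4) in control and 8.63 to 32.2 FPKM (median 18.6) in KPC libraries. By edgeR's test at an unadjusted p under 0.05, 2 of 10 macrophage and 2 of 3 lymphocyte markers were reached, and DESeq2 and limma called none of them.

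Genes of the vessel wall moved in both directions. *Vwf*, the von Willebrand factor of endothelial cells, ranged from 2.59 to 3.84 FPKM (median 3.38) in control and from 3.02 to 5.23 FPKM (median 4.31) in KPC libraries (log2 fold change 0.36, standard error 0.06, adjusted p = 0.000835). *Selp*, the P-selectin that recruits leukocytes, and *Plvap*, a protein of fenestrated and activated endothelium, both chosen after their values were seen, rose by 0.96 and 0.46 (adjusted p = 0.00739 and 0.00513). In contrast *Kdr*, the main VEGF receptor, had a log2 fold change of -0.27 (adjusted p = 0.0235), and *Aplnr*, the apelin receptor, also chosen after its values were seen, of -0.48 (adjusted p = 0.00467). *Kdr* was no longer called without 1 of 6 libraries, replicate 2 of the control mice at 16:00 or 20:00, replicate 1 of the KPC mice at 00:00 or 12:00, or replicate 2 of the KPC mice at 16:00 or 20:00 (adjusted p up to 0.0616). Of 11 endothelial markers, *Vwf* was the only one called higher and *Kdr* the only one lower, and their summed level was 95.9 to 142 FPKM (median 119) in control and 103 to 131 FPKM (median 118) in KPC mice.

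Collagen chains were the list with the most falls. Of 36 tested, 11 were lower in KPC mice and none was higher, 34 had a negative log2 fold change, and the median was -0.329. *Col6a1*, a chain of the collagen VI that surrounds muscle fibers, ranged from 5.81 to 12.3 FPKM (median 10.01) in control and from 3.85 to 13.04 FPKM (median 7.31) in KPC libraries (log2 fold change -0.49, standard error 0.10, adjusted p = 0.0112). The basement membrane chains *Col4a1* and *Col4a2* fell by 0.21 and 0.24 on the log2 scale (adjusted p = 0.0496 and 0.0112). The fibrillar chains varied more between mice, with *Col1a1* ranging from 5.26 to 36.1 FPKM (median 13.1) and from 2.99 to 19.8 FPKM (median 7.54) (log2 fold change -0.90, standard error 0.23, adjusted p = 0.0406), and *Col1a2* and *Col3a1* at -0.79 (adjusted p = 0.0351) and -0.70 (adjusted p = 0.0384). *Col5a3* (log2 fold change -0.37, adjusted p = 0.00576), *Col5a1*, *Col6a2*, *Col12a1*, and *Col22a1* were the other chains called. The list was not lower by the same amount at each time, a description with no test. At 12:00, 16:00, and 20:00, 35, 33, and 32 of 36 chains were lower, with medians of -0.503, -0.666, and -0.570, whereas 23, 26, and 23 of 36 were lower at 00:00, 04:00, and 08:00, with medians of -0.0882, -0.0781, and -0.162.

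The number of collagens called depended on single mice, and 22 of the 36 had an unadjusted p under 0.05, all lower. It was 3 without replicate 2 of the control mice at 12:00, replicate 1 of the control mice at 16:00, replicate 1 of the KPC mice at 12:00, or replicate 1 of the KPC mice at 16:00, 4 without replicate 1 of the control mice at 20:00 or replicate 2 of the KPC mice at 16:00 or 20:00, and 5 without replicate 2 of the control mice at 08:00 or 20:00, replicate 1 of the KPC mice at 00:00 or 04:00, or replicate 2 of the KPC mice at 08:00. It was 7 without replicate 2 of the KPC mice at 12:00 or replicate 1 of the KPC mice at 20:00, 11 without replicate 1 of the control mice at 08:00, and at most 15. Without a time it was 1 (12:00), 2 (16:00 or 20:00), 5 (08:00), 8 (00:00), or 12 (04:00), and limma called 3. *Sparc*, a matrix glycoprotein that binds collagen, was called with any library left out and ranged from 28.5 to 52.8 FPKM (median 35.8) in control mice and from 22.9 to 34.3 FPKM (median 27.0) in KPC mice (log2 fold change -0.45, standard error 0.07, adjusted p = 0.000835). *Tnc* (tenascin C) fell by 1.001 on the log2 scale (adjusted p = 0.0154), and these were the 2 of 35 other matrix genes called, at a median of -0.188, with 16 lower at an unadjusted p under 0.05. The matrix count was 10 without replicate 2 of the KPC mice at 04:00, 5 without replicate 1 of the control mice at 08:00, 4 without replicate 1 of the KPC mice at 08:00, 1 to 6 without a time, and up to 19 in the other alternatives (with no filter on low counts). *Tnmd*, the tendon gene tenomodulin, ranged from 0.323 to 3.31 FPKM (median 1.30) and from 0.137 to 1.02 FPKM (median 0.419) (log2 fold change -1.41, standard error 0.32, adjusted p = 0.0162), and *Kera*, the proteoglycan keratocan, from 0.195 to 2.05 FPKM (median 0.691) and from 0 to 0.768 FPKM (median 0.217) (log2 fold change -1.48, standard error 0.32, adjusted p = 0.0118). *Ltbp4*, a TGF-beta-binding matrix protein chosen after its values were seen, fell from 19.3 to 27.8 FPKM in control mice to 14.5 to 23.2 FPKM in KPC mice (log2 fold change -0.33, adjusted p = 0.00068). Summed over 9 fibroblast markers, 2 of them collagens, the level was 72.4 to 204 FPKM (median 156) in control and 51.8 to 235 FPKM (median 102) in KPC libraries. Over 6 tendon markers it was 17.1 to 55.5 FPKM (median 31.1) and 13.6 to 34.98 FPKM (median 19.3). Median log2 differences also varied by time, a description with no test. At 00:00 and 04:00 they were 0.0517 and -0.0659 for fibroblast and -0.00117 and 0.129 for tendon markers. At 08:00, 12:00, 16:00, and 20:00 they were -0.535, -0.584, -1.07, and -1.09 for fibroblast and -0.5, -0.702, -1.28, and -1.37 for tendon markers. Those of the other matrix genes were 0.0265, 0.0871, and -0.0156 at 00:00, 04:00, and 08:00, then -0.411, -0.4, and -0.494. The part of fibroblast and tendon tissue in the sample was not tested.

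Outside the matrix, the largest falls were in genes of several kinds. *Actc1*, the cardiac actin that skeletal muscle expresses during development and regeneration, ranged from 92.8 to 498 FPKM (median 242) in control and from 58.3 to 296 FPKM (median 116) in KPC libraries, a 2.33-fold fall (log2 fold change -1.22, standard error 0.22, adjusted p = 0.00333). The groups overlapped, with control mice spread over a wide range at 12:00. *Tfrc*, the transferrin receptor that takes up iron, ranged from 21.7 to 57.2 FPKM (median 35.1) and from 12.2 to 34.1 FPKM (median 21) (log2 fold change -0.76, standard error 0.14, adjusted p = 0.00317). *Rian*, a noncoding RNA of an imprinted cluster on chromosome 12 (109570242 to 109628150 of mm39, plus strand), ranged from 0.469 to 1.09 FPKM (median 0.763) in control mice and from 0.327 to 0.699 FPKM (median 0.415) in KPC mice (log2 fold change -0.85, standard error 0.12, adjusted p = 0.000168), and its neighbor *Meg3* (109506879 to 109538165), chosen after its values were seen, fell as well (log2 fold change -0.54, adjusted p = 0.00551). *Ccnd1* (cyclin D1) had -0.66 (adjusted p = 0.00357), *Akap5*, an anchoring protein for protein kinase A, -0.69 (adjusted p = 0.0251), and *Hoga1*, a mitochondrial enzyme of hydroxyproline breakdown, -0.68 (adjusted p = 0.0189). Of contractile genes, the fast-fiber actinin *Actn3* rose by 0.18 (adjusted p = 0.0384) and the intermediate filament *Des* by 0.16 (adjusted p = 0.0395). The lactate transporter *Slc16a3* (log2 fold change -0.19, adjusted p = 0.0398) and the glycolytic enzyme *Pgam2* (log2 fold change -0.23, adjusted p = 0.0316) were the 2 of 25 glycolysis and glycogen genes called, both lower, and *Scd2*, a desaturase, the only one of 17 lipid synthesis genes (log2 fold change -0.29, adjusted p = 0.0498). Each of these 5 small changes lost its call in 10 or more of the 24 fits without 1 library.

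Genes that are used as markers of muscle atrophy did not pass. Of 15 ubiquitin ligases and ubiquitin genes, none was called by edgeR's quasi-likelihood test, and DESeq2 and limma called none. By edgeR's test 3 had an unadjusted p under 0.05, against 2077 of all 14966 genes. *Fbxo32* (atrogin-1) ranged from 13.7 to 49.8 FPKM (median 28.4) in control mice and from 23.2 to 63.5 FPKM (median 31.4) in KPC mice and was higher on average at all 6 times (log2 fold change 0.31, standard error 0.14, adjusted p = 0.303), and *Trim63* (MuRF1) had 0.00 (adjusted p = 0.984) with a 95% interval of -0.13 to 0.14. None of 22 autophagy and lysosome genes passed either (5 at an unadjusted p under 0.05, none by DESeq2 or limma). Apart from *Psmb8* and *Psmb9*, no proteasome gene of 46 passed, at a median of -0.0464. Nuclear-encoded subunits of oxidative phosphorylation had no call, 78 of 80 with a negative log2 fold change and a median of -0.0957, with 30 at an unadjusted p under 0.05, all lower, and 2 called by DESeq2. Their median difference was -0.361 at 08:00 and lay between -0.119 and 0.0747 at the other times, and without 08:00 the median of the list was -0.0404. The low value at 08:00 was not particular to these genes. At that time ribosomal protein genes had a median of -0.321 (72 of 76 lower) and proteasome genes of -0.194 (41 of 46 lower). The median of all genes tested was then -0.00517, and that of the glucocorticoid list 0.345. The part of the control library that stood apart at 08:00 was not tested. Citrate cycle genes (18, median -0.0680, 8 at an unadjusted p under 0.05) and ribosomal protein genes (76, median -0.0025, 1 at an unadjusted p under 0.05) had no call by any of the 3 tools.

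The remaining lists held no call by edgeR's test. These were transcripts encoded in the mitochondrial genome (13 genes, median -0.0970, 3 at an unadjusted p under 0.05), slow-fiber genes (10, median 0.0207, none), genes that respond to denervation (12, median -0.0289, 1), the growth axis of myostatin and insulin-like growth factor (24, median 0.0307, 6), metallothioneins and zinc transporters (6, median 0.0717, 1), heat shock genes (14, median -0.0649, 5), amino acid and polyamine genes (12, median 0.0379, 3), and hypoxia genes (11, median 0.0734, 1). DESeq2 called 1 of the metal and 1 of the hypoxia genes, and limma none. Of the markers, those of fibers (6 genes, 1 at an unadjusted p under 0.05), adipocytes (7, 1), erythroid cells (5, none), satellite cells (4, none), epithelium (4, none), and liver (2, both) had no call either. Schwann cell markers (7) had 5 at an unadjusted p under 0.05, all lower. Mural cell markers (6) had 3, all lower, and their summed level was 94.98 to 114 FPKM (median 101) in control and 81.6 to 107 FPKM (median 92.3) in KPC libraries, of which 8 lay below every control library. DESeq2 and limma called none of these markers.

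Of 20 clock genes, 1 passed the test of the average over the 6 times. *Bhlhe40*, a repressor of the clock, ranged from 14.3 to 31.0 FPKM (median 21.8) in control and from 21.5 to 35.7 FPKM (median 25.6) in KPC libraries (log2 fold change 0.30, standard error 0.07, adjusted p = 0.0344), and the call was lost in 10 of the 24 fits without 1 library. *Per1*, a core repressor, had 0.57 (adjusted p = 0.0735). The other 18 had adjusted p of 0.137 or more, with log2 fold changes from -0.21 (*Bhlhe41*) to 0.26 (*Ciart*). The activator *Arntl* (*Bmal1*) had -0.03 with a 95% interval of -0.21 to 0.15, *Clock* -0.06 (-0.21 to 0.08), *Npas2* 0.13, *Nr1d1* 0.13, *Nr1d2* 0.01, *Per2* 0.23, *Per3* 0.11, *Cry1* 0.08, and *Cry2* 0.03. *Rora*, *Dbp*, *Hlf*, *Nfil3*, and *Klf9* lay between 0.02 and 0.07, and *Tef* at 0.00323. *Foxp1*, the forkhead repressor that the other genotype of the series lacks in muscle fibers, ranged from 0.430 to 0.971 FPKM (median 0.615) in control mice and from 0.454 to 0.757 FPKM (median 0.636) in KPC mice, and the 95% interval of its log2 fold change was -0.15 to 0.15 (adjusted p = 0.994).

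The effect held without 08:00. With the 4 libraries of that time left out (10 KPC against 10 control), 232 genes were called (1.55%), 156 higher (1.04%) and 76 lower (0.508%), and all 238 genes of the full comparison kept their direction. All 238 also kept it in every other alternative. The fits share most of their libraries and the full fit chose the genes, so the kept direction is no evidence on 08:00. Of the 238, 170 were still called, 122 of those that rose and 48 of those that fell, and 62 further genes were added. Interferon and MHC genes kept 23 of 26 calls, without *Ciita*, *Gbp5*, and *Irgm2* (the list's median was 0.580), and cytokine signaling genes kept all 10 and added *Cebpb*. *Iigp1* then had a log2 fold change of 1.21 (adjusted p = 0.000124), *Jak3* of 0.70 (adjusted p = 0.000124), *Tap1* of 0.92 (adjusted p = 0.000301), *Sparc* of -0.45 (adjusted p = 0.00209), and *Actc1* of -1.34 (adjusted p = 0.00361). *S100a9* went from 1.87 to 2.51 (adjusted p = 0.000544), whereas it did not pass when any other time was left out. Of the collagens 5 of 11 were still called, though the median was -0.368. *Col1a1* (log2 fold change -0.96, adjusted p = 0.0647), *Klf15* (log2 fold change 0.27, adjusted p = 0.0836), *Fos* (log2 fold change 0.79, adjusted p = 0.05005), *Pdk4* (log2 fold change 0.62, adjusted p = 0.0731), and *Hoga1* (log2 fold change -0.62, adjusted p = 0.0698) no longer passed, at values of the same sign. The liver genes *Alb* and *Hpx*, not called with all 6 times, passed here at 3.99 (adjusted p = 0.0471) and 3.30 (adjusted p = 0.0496), as both did without replicate 2 of the control mice at 08:00, with the highest levels of albumin in the KPC libraries described above. Leaving out another time gave fewer calls, from 123 without 12:00 to 223 without 04:00.

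**Figure D4:**
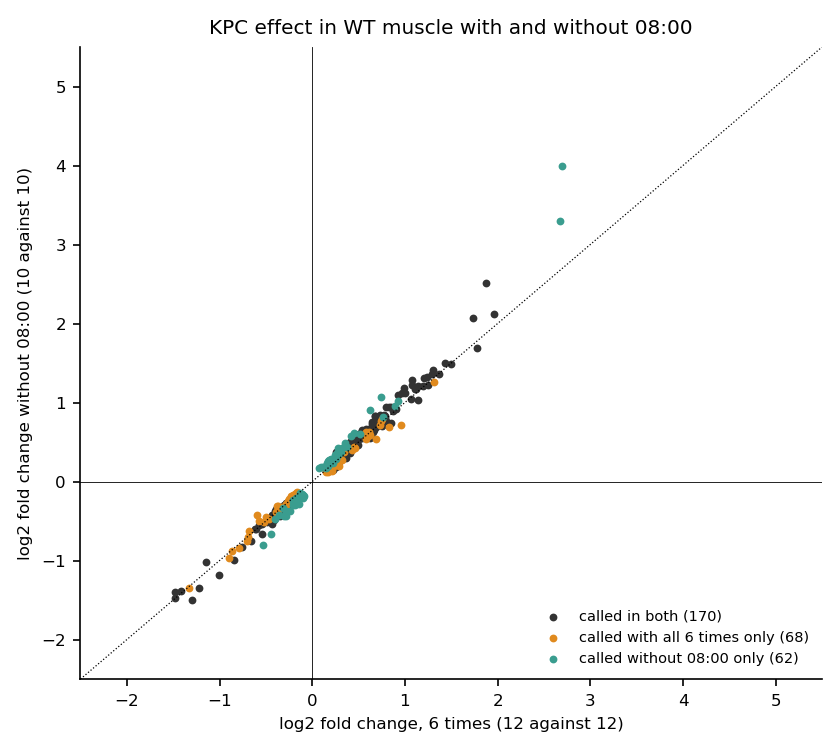
Log2 fold change of KPC against control mice without 08:00 (10 against 10 libraries) against that over all 6 times (12 against 12), for the 300 genes called in either comparison. Points lie along the dotted line of equality, and the colors separate 170 genes called in both, 68 called with all 6 times only, and 62 called without 08:00 only, of which the 2 points highest on the vertical axis are the liver genes Alb and Hpx.

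Where the KPC effect differed between times, 08:00 was the time that set it apart. The test of condition by time called 83 of 14966 genes (0.555%), 71 of which had their largest absolute difference at 08:00, and 1 of which, *Ly6e*, was also among the 238. Without 08:00 it called 2, and without replicate 1 of the control mice at 08:00, the library that stood apart, it called none, and without replicate 1 of the KPC mice at 08:00 it called 3 (edgeR; 1963 genes had an unadjusted p under 0.05 in the full test, and DESeq2 called 431). *Hipk2*, a kinase of stress signaling, had 2.22 and 3.89 FPKM in the control mice at 08:00 against 12.4 and 12.4 FPKM in the KPC mice at that time, and 6.33 to 17.1 FPKM in all libraries outside the control mice at 08:00. The 2 control libraries at 08:00 were thus the lowest of the 24 (adjusted p = 0.00931). *Ncoa2*, a coactivator of nuclear receptors, *Fyco1*, an adaptor of autophagosome transport, and *Hivep2*, a zinc finger transcription factor, had the same pattern, with log2 differences of 0.71, 0.68, and 0.73 at 08:00 and between -0.24 and 0.08 at the other times. All 4 lost their call without that control library. Of the interferon list, *Psmb10* alone passed this test, with -0.72 at 08:00 and 0.12 to 0.32 at the other times (adjusted p = 0.0469). *Iigp1* had log2 differences from 0.78 at 20:00 to 1.54 at 12:00 (adjusted p for a difference between times = 0.957) and the list median was 0.308 or more at every time. Of the clock list, *Nr1d1* differed between times, from 0.87 at 00:00 to -0.52 at 20:00 (adjusted p = 0.0398).

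The same contrast in muscle with a deletion of *Foxp1* in fibers (FoxP1SkmKO, 12 KPC against 12 control mice of its own, with Cre under the ACTA1 promoter) gave smaller values for the interferon genes. The genotypes share no samples. In FoxP1SkmKO mice 1 of the 14759 genes tested in both was called (0.00678%), *Rhbdf2*, a regulator of ADAM17, which was not among the 238. Of the 238, 133 of the 150 that rose were also positive there and 83 of the 88 that fell also negative. The share of all genes with the same sign in both genotypes was not counted, so these counts have no background to be read against. The median over the interferon list was 0.587 in WT and 0.0824 in FoxP1SkmKO mice. *Iigp1* had a log2 fold change of 0.18 (standard error 0.38) there, *Tap1* of 0.40 (standard error 0.24), *H2-K1* of 0.17 (standard error 0.16), and *B2m* of 0.10 (standard error 0.15). Among cytokine and neutrophil genes, *Jak3* was at 0.51 (standard error 0.10), *Csf2rb* at 0.95 (standard error 0.22), *Socs3* at 0.62 (standard error 0.20), and *S100a9* at 1.91 (standard error 0.68). The medians of the collagens were -0.329 in WT and -0.399 in FoxP1SkmKO mice, and those of cytokine signaling 0.163 and 0.0900. The difference between the genotypes was tested in a fit of all 48 libraries, and no gene of 15637 passed (0%; edgeR, lowest adjusted p = 0.914; 848 genes, or 5.42%, had an unadjusted p under 0.05; DESeq2 called none). All 34 interferon genes had a larger log2 fold change in WT mice, by a median of 0.482 (0.132 to 1.04), and 16 of them an unadjusted p under 0.05. This was not particular to the list. The value was also larger in WT mice for 146 of the 150 genes that rose there and for 26 of 30 cytokine signaling genes. It was lower in WT mice for 69 of the 88 that fell. Choosing genes by their change in WT mice favors a larger change there. The genes with the lowest p were *Trim21*, an interferon-induced ubiquitin ligase (difference 0.69, standard error 0.16), *Cog5*, and *Recql5*, larger in WT mice, and *Klhdc3*, *Tmem259*, and *Vcp-rs*, larger in FoxP1SkmKO mice. The test thus does not show that the KPC effect on any named gene differs between the genotypes, and the intervals are wide, 1.01 with a standard error of 0.43 for *Iigp1*.

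**Figure D5:**
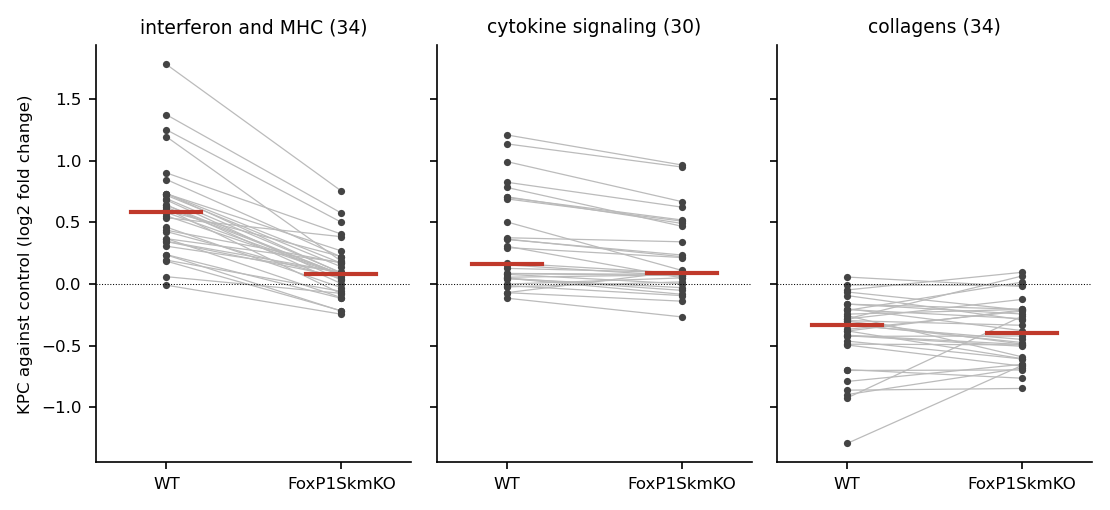
Log2 fold change of KPC against control mice in WT (left of each panel) and FoxP1SkmKO muscle (right) for members of the interferon and MHC, cytokine signaling, and collagen lists tested in both genotypes, with a line for each gene and a red bar at each median. The medians are 0.587 and 0.0824 for the interferon list, and no gene passed the test of a difference between the genotypes.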

How the data were processed

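RNA-seq of tibialis anterior muscle was analysed in the 24 WT libraries, with the 24 FoxP1SkmKO libraries used for the comparison of genotypes alone. Per the study's methods, the authors used STAR for alignment to mm39 and HTSeq for counts per gene, whereas the submitters' processing notes name HISAT2 2.0.5 and DESeq2 1.20.0. The deposited counts are raw reads per gene and library, spread over 12 tables of 4 libraries each. The authors also deposited FPKM, computed from counts, gene length and library size, and a normalized signal (counts divided by size factors), which was checked and not used. Log2 fold changes, p-values and adjusted p-values of the authors' own comparisons were not used. Genes missing from a table had at most 1 read per library, and 367 to 1064 per library were recovered as whole reads (within 0.01) from FPKM.

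Counts were tested with edgeR 4.0.16 in R 4.3.3 (filterByExpr with a minimum count of 10, TMM scaling, quasi-likelihood F test) with a term for each circadian time and 1 for KPC. A gene was called at an adjusted p (Benjamini-Hochberg) under 0.05. Standard errors come from the F statistic, with a moderated spread (prior degrees of freedom 9.38, residual 17). Condition by time was tested with 5 interaction terms. The differences given at single times are of mean log2 CPM. Mice are the replicates, and each p-value rests on the spread between them. Alternatives are given in the closing section. The fits were tested on simulated data. Python 3.11.15 and matplotlib 3.10.9 were used for summaries and plots.

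The 29 pathway lists, the 14 marker lists and the tests were chosen with earlier results of these data known. Named genes were the 8 largest changes in each direction (same direction at all 6 times, mean log2 CPM above 0), the 3 members of each list with the lowest p, *Foxp1* and all clock genes, the 4 genes with the lowest p for condition by time, and the 3 with the lowest p in each direction of the genotype difference. Other genes named are members of the lists or are stated as chosen after their values were seen. Some genes that the rule names are not reported here.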

Additional observations from a re-analysis of the deposited data

Results flagged for a closer look

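The KPC effect differed between circadian times for the 4 genes named from that test, *Hipk2* (adjusted p = 0.00931, by the quasi-likelihood test of edgeR), *Ncoa2* (adjusted p = 0.0115), *Fyco1* (adjusted p = 0.0181), and *Hivep2* (adjusted p = 0.0181). In each, KPC mice were higher than control mice at 08:00, by 2.06 for *Hipk2*, 0.71 for *Ncoa2*, 0.68 for *Fyco1*, and 0.73 for *Hivep2* on the log2 scale. Without replicate 1 of the control mice at 08:00 the adjusted p were 0.101, 0.128, 0.197, and 0.197, and without replicate 1 of the KPC mice at that time 0.0321, 0.0535, 0.076, and 0.0535. Replicate 2 of the control mice at 08:00 was low in the same genes (3.89 FPKM of *Hipk2* and 26.0 FPKM of *Fyco1*, against 2.22 and 22.0 FPKM in replicate 1). The share of control mice and of the sequencing library in these differences was not tested.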

How the results depend on the processing

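Of 1959 values of the 49 named genes called, over 40 alternatives, none changed sign, 1647 stayed past the threshold, and 312 did not. Of 4635 values of the 116 named genes not called, 152 passed. The counts of genes higher and lower in KPC mice were 97 and 53 without 00:00, 90 and 33 without 12:00, and 94 and 34 without 20:00, and 38 were lower without 16:00. The fits without a time had fewer libraries. With any library left out, 111 to 199 genes were higher and 48 to 134 lower. The lower count was 49 without control 12:00 replicate 2, 52 without control 20:00 replicate 2, 51 without KPC 12:00 replicate 1, 50 without KPC 16:00 replicate 2, 48 without KPC 20:00 replicate 2, and 134 without KPC 04:00 replicate 2. With 12 group coefficients 228 were higher and 135 lower, and DESeq2 called 146 lower. With no filter on low counts 415 were higher and 305 lower. That fit tested 29593 genes and moderated every gene fully to the trend (prior degrees of freedom infinite, against 9.38), as it did for the genes that differed between times (1012) and between genotypes (89). The genes that differed between times numbered 431 with DESeq2, 2 without 08:00, and 0 (without control 08:00 replicate 1) to 159 (without KPC 20:00 replicate 2) with any library left out, with a shift of over 1.5 times for 17 of the 24, and the genes that differed between genotypes 0 with any WT library left out. The cause of the other shifts was not tested. With the replicate number as a block within circadian time, 128 genes were higher and 70 lower, 10 differed between times, and none differed between genotypes. As an added term, the block left 145 higher and 81 lower. The replicate numbers did not pair the mice (replicate differences of KPC and control mice correlated at -0.025 to 0.028 within times), and the block changed no other count by more than 1.5 times. Low levels limit genes such as *Tgtp1* and *Csf3r*, whose control medians were 0.245 and 0.0949 FPKM.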

Other observations

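Liver transcripts were present in some WT libraries. The fibrinogen chain *Fga* was at 0 in every control library and ranged from 0 to 0.788 FPKM in KPC libraries, with an adjusted p of 0.0972, and *Hpx* (hemopexin) reached 0.199 FPKM in control and 1.52 FPKM in KPC libraries, with 2.67 (adjusted p = 0.0845). *Alb* had 67 reads in the 12 control and 461 reads in the 12 KPC libraries.

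Besides *Rian* and *Meg3*, 2 further genes of the same stretch of chromosome 12 had negative fold changes without passing. *Dlk1* (109418749 to 109429262) had a log2 fold change of -0.58 (adjusted p = 0.256) and *Mirg* (109696198 to 109715894) of -0.36 (adjusted p = 0.471).

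Immune genes outside the lists that passed, chosen after their values were seen, were *Cd274* (PD-L1), which ranged from 0.902 to 2.10 FPKM (median 1.31) in control and from 1.56 to 4.04 FPKM (median 2.45) in KPC libraries (log2 fold change 0.90, adjusted p = 0.000985), *Apobec3*, an antiviral deaminase (log2 fold change 0.74, adjusted p = 0.000139), *Irf9* and *Stat2*, partners in the interferon-stimulated gene factor (log2 fold changes 0.44 and 0.38, adjusted p = 0.00129 and 0.0162), and *Ifi47*, an immunity-related GTPase (log2 fold change 1.08, adjusted p = 0.000835).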
